A study of Homo sapiens with 2 samples.

Results

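Known single-exon models are the rows of the deposited transcript table that match an annotated transcript made of 1 exon, with mitochondrially encoded genes (symbols that begin with MT-) left out. There were 2528 of them, in 2509 genes, among 237608 transcript models in all, beside 20981 known models with 2 or more exons. The RNA came from GM12878, a human B-lymphoblastoid cell line carrying Epstein-Barr virus, for which the labels give no treatment. Native RNA strands were sequenced on Oxford Nanopore flow cells in 2 replicate libraries, which form the only group. Each library took 3 µg of RNA that the labels call depleted, without saying of what, and a reverse transcription step served only to resolve secondary structure. The table gives 1360368 reads for replicate 1 and 1510998 for replicate 2. A single read was therefore 0.735 and 0.662 CPM, the read count scaled to the library total. The labels do not say whether the replicates came from separate cultures, so every test below compares the reads of these libraries, not conditions, and its p-value measures only the difference between them.

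The labelled cell type was checked against marker genes. All 7 B cell genes examined had reads, from CD74, the class II invariant chain, with 10565 and 12221 reads, to the transcription factor PAX5 with 54 and 70. CD3D of T cells, LYZ of myeloid cells, HBB, HBG1 and GATA1 of erythroid cells, ALB of liver and DCN of fibroblasts had 0 reads in replicate 1 and in replicate 2. A count of 0 allows up to 3 reads, or 2.21 and 1.99 CPM, counting error only. Other markers of these types had few reads: CD3E of T cells had 5 and 16, CD2 had 3 and 10, CD14 of myeloid cells had 2 and 2, COL1A1 of fibroblasts had 2 and 3, and APOA1 of liver had 0 and 1.

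A transcript can have a single exon for several reasons. Some genes, such as those of most histones, JUN-family factors and many small RNAs, never acquired introns. Others are processed pseudogenes, copies of a spliced mRNA that were reverse transcribed and inserted elsewhere in the genome, so that they carry the mature sequence of the parent gene without its introns. In spliced genes, an annotated transcript with 1 exon can be a retained-intron form, a terminal form or another kind, such as a coding or long noncoding transcript. Direct RNA reads start at the poly(A) tail and run towards the 5′ end, so the annotated length of a model is not the length of the reads assigned to it. The table holds no read positions or read lengths, and a read without a splice junction carries no junction that would place it.

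The sequences below show how close the most-read pseudogene models are to the spliced gene they resemble. Each stretch of 70 bases lies within the coding part of the spliced transcript, and capitals mark bases that differ from it. The first set is of RPS26, which codes for a protein of the small ribosomal subunit.

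RPS26 spliced transcript (RPS26-204): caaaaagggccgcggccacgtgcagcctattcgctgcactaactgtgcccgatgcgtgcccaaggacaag
AC004057.1-201 (chr4:113214292-113214361, minus strand): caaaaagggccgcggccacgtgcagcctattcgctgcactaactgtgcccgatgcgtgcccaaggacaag
RPS26P3-201 (chr9:9090930-9090999, plus strand): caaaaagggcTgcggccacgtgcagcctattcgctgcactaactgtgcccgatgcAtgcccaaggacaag
RPS26P47-201 (chr13:100540147-100540216, minus strand): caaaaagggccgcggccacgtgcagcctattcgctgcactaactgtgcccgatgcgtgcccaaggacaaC
AC004552.1-201 (chrX:24429819-24429888, minus strand): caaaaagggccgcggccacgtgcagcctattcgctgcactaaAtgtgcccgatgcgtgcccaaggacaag

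The second set is of RPL13A, a protein of the large ribosomal subunit, and the copies shown carry 1, 4 and 5 differing bases in the stretch shown.

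RPL13A spliced transcript (RPL13A-201): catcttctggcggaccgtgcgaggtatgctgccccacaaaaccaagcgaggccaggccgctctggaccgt
RPL13AP5-201 (chr10:96750521-96750590, plus strand): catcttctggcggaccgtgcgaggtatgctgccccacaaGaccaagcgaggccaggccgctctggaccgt
RPL13AP25-201 (chr13:54441013-54441082, minus strand): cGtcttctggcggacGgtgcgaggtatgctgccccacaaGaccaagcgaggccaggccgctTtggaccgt
RPL13AP7-201 (chr21:25362055-25362124, plus strand): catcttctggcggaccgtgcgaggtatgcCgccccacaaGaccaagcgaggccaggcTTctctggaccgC

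The third set is of RPL21, also of the large subunit. Here the most-read copy is identical to the spliced transcript over all of its 483 bases. The next copies by reads, RPL21P75-201 (590 and 811 reads) and RPL21P28-201 (29 and 49), are not printed. They also have 0 differing bases in this stretch.

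RPL21 spliced transcript (RPL21-204): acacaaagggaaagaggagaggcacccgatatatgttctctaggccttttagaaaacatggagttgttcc
RPL21P16-201 (chr10:120355107-120355176, minus strand): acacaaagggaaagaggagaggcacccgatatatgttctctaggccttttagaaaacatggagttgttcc
AC107032.1-201 (chr12:76660412-76660481, plus strand): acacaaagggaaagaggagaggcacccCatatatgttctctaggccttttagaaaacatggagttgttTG

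In spliced genes, a single-exon model can contain a whole intron. The junction sequences below are from 3 such models whose introns were removed in other known models read in the same libraries, with 10 exon bases and 18 intron bases on each side and the first and last intron bases, GT and AG, in capitals.

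B2M-213, start of intron chr15:44716357-44717606, plus strand: catcatggagGTaagtttttgaccttga
B2M-213, end of the same intron: tttttcttttcttttcAGgtttgaagat
GPX1-201, start of intron chr3:49357748-49358026, minus strand: tgggcatcagGTgcgccgggcggagcgg
GPX1-201, end of the same intron: tgcccttctctcctgtAGgagaacgcca
SYNGR2-209, start of intron chr17:78171055-78171509, plus strand: ctcttctcagGTatctgcctgtggcacc
SYNGR2-209, end of the same intron: tcacccgtcctcccccAGctctctggac

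All coordinates are those of GRCh38 with GENCODE release 29. Across the 276 single-exon models of spliced genes that contained an annotated intron of 30 bases or more, 676 of the 712 introns contained (94.9%) began with GT and ended with AG.

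Known single-exon models received 78299 reads in replicate 1, a share of 5.76% with a Wilson 95% interval from 5.72 to 5.80%. In replicate 2 they received 101192, a share of 6.70% (6.66 to 6.74%). The mean was 6.23% ± 0.666 (SD, n = 2), and the share was higher in replicate 2 (Fisher's exact test on reads, p = 3.83e-238). Over the same libraries, known models with 2 or more exons went from 48.3% to 38.2% of the reads, and the part of this in the values below was not tested. In bulk RNA, fewer cells transcribing a gene and less of its RNA per cell cannot be told apart. Of all reads in known models, single-exon models therefore made up 10.3% and 14.6%. When the single-exon models of MT- genes were counted too, the shares were 7.57% and 7.63% and the exact test gave p = 0.0766. The reads were concentrated in few models: the 10 models with the most reads held 38.6% and 34.5% of them, and the first 100 held 84.6% and 82.7%.

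Intronless genes, which have no annotated intron in any transcript, supplied 1934 models. These held 82.4% of the single-exon reads in replicate 1 against 83.5% in replicate 2 (82.9% ± 0.836, SD, n = 2, Fisher's exact test p = 3.81e-11). Genes that are spliced in at least 1 annotated transcript supplied 594 models and the remaining 17.7% and 16.5%. Without pseudogenes, the intronless share was 55.1% and 54.6% and did not pass the exact test (p = 0.289). By type, 895 pseudogene models held 61744 and 76610 reads, which was 78.9% and 75.7% of the total. The 364 protein-coding models held 8496 and 10468 reads, the 273 retained-intron models 3714 and 5846, the 646 long noncoding models 1731 and 2545, and the 240 small noncoding models 1429 and 2667. Pseudogene models were short, with a median annotated length of 525 bases, against 2171.5 bases for coding and 2496 for retained-intron models.

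To see which models differed between the libraries, each model of the table with at least 10 reads was tested with an exact binomial test against the library totals. Of all 25381 models tested, 15.6% passed an adjusted p of 0.05, 8.23% as higher and 7.34% as lower in replicate 2. Among known models with 2 or more exons, 25.1% passed, 2.92% as higher and 22.1% as lower. Of the 709 single-exon models tested, 119 passed, and 111 of them were higher in replicate 2 while 8 were lower. Their called share, 16.8%, was near that of all models, while the direction was split unlike that of the spliced models. The median log2 ratio of replicate 2 over replicate 1 was 0.33 for the 709 and 0.14 for all models tested. With TMM scaling, which lowers every log2 ratio by 0.15, the split was 76 higher and 19 lower, and with DESeq2 size factors it was 76 and 18.

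**Figure D1:**
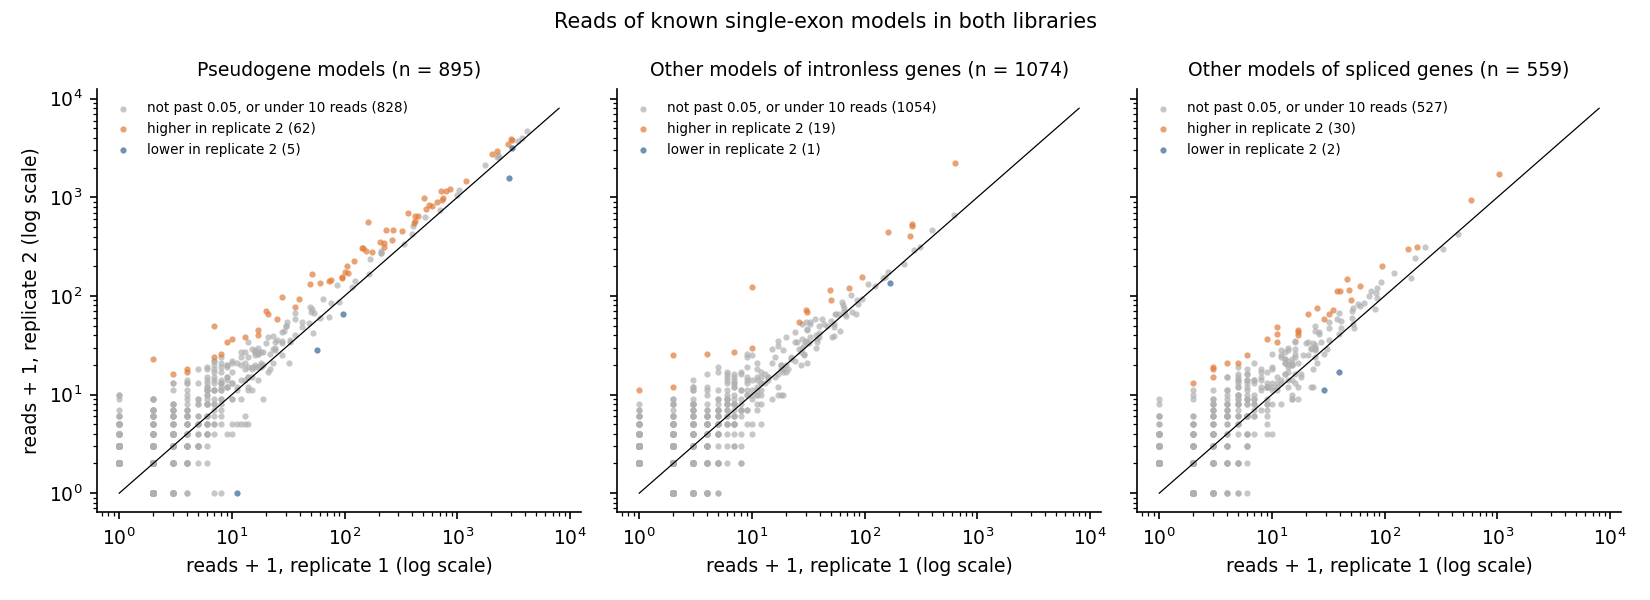
Reads plus 1 of each known single-exon model in replicate 1 (x, log scale) and replicate 2 (y, log scale), in 3 panels by kind; each point is 1 model, orange and blue mark models past an adjusted p of 0.05, and the line marks equal reads. Of the 895 pseudogene models 62 were higher and 5 lower in replicate 2, and among the other models the called ones also lay mostly above the line.

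Pseudogene models held most of the reads. RPL21P16-201, at chr10:120354701-120355183, had the most, with 4186 and 4648 reads, or 3076.6 CPM ± 0.704 (SD, n = 2), and its log2 ratio was 0.00. RPL13AP5-201 had 3714 and 4032 reads, 2699.3 CPM ± 43.6 (SD, n = 2). AC005912.1-201, a copy of RPS27, had 3461 and 3719. These models did not pass the test in either direction, with exact binomial adjusted p of 1, 0.571 and 0.378. They passed as lower with TMM scaling and as higher when scaled to reads in known models. RPS28P7-201 rose from 3055 to 3815 reads (log2 ratio 0.17, exact binomial adjusted p = 3.83e-05) and RPL7P9-201 from 2802 to 3458 (0.15, 6.57e-04). Both calls were lost with TMM scaling. All 5 resemble ribosomal protein genes, with 99.5% to 100% identity to the spliced transcript.

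Most pseudogene models were near-copies of a spliced coding transcript. Of the 895, 785 (87.7%) matched a spliced transcript of another protein-coding gene at 90% identity or more over at least 90% of their length, and these held 99.6% of the pseudogene reads in each library. The 376 nearest to a ribosomal protein gene held 55932 and 69132 reads, which was 71.4% and 68.3% of all single-exon reads. Reads lay with the closest copies. The 105 models of 99% to 100% identity held 79.2% and 75.3% of the pseudogene reads, with a median of 28 reads per model over both libraries. The 241 models of 97% to 99% identity held 16.6% and 19.7% (median 6 reads), the 186 of 95% to 97% held 2.82% and 3.38% (median 4), and the 253 of 90% to 95% held 1.01% and 1.26% (median 2). Reads of a near-identical copy and of the spliced gene can be split between them by the alignment, so the level of each such model is uncertain. How reads that match both were assigned is not given in the sources used here.

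**Figure D2:**
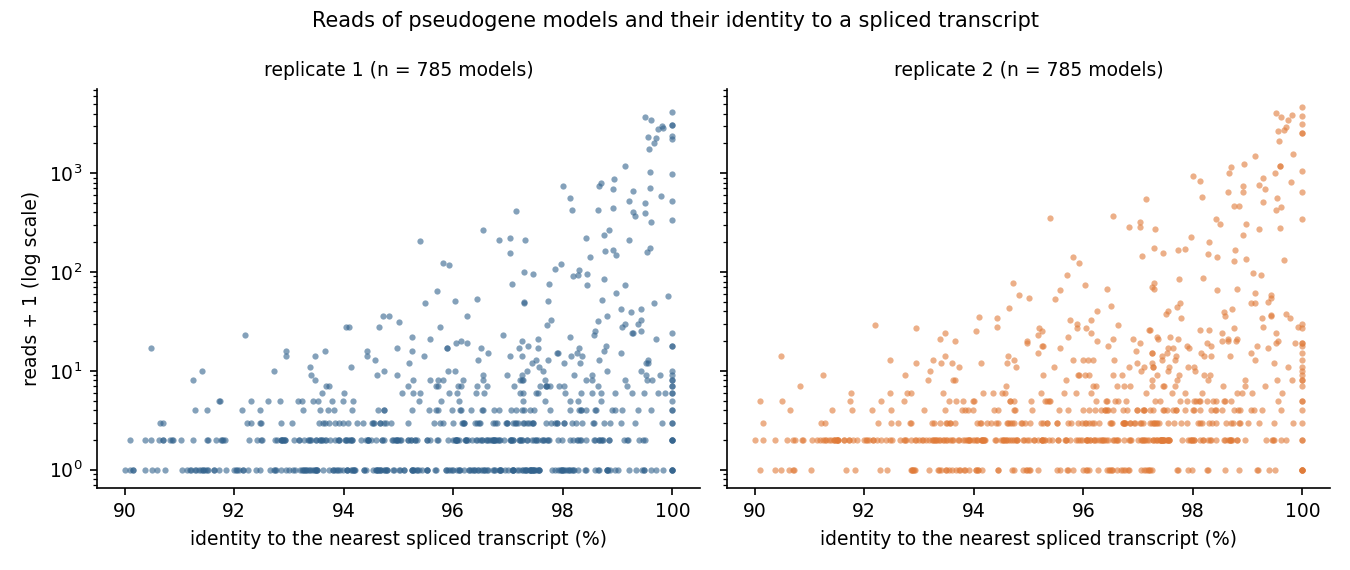
Reads plus 1 (log scale) of the 785 pseudogene models that match a spliced coding transcript, against their percent identity to it, in replicate 1 (left) and replicate 2 (right); each point is 1 model. The models with the most reads lie near 100% identity in both libraries, and most models below 95% have few reads.

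Within a family of copies, 1 model usually held most of the reads. In the 32 spliced genes with at least 5 pseudogene models, the most-read copy held a median of 78.9% of the family's pseudogene reads (25% to 98.8%). In 24 of the 32 that copy also had the highest identity of its family. For RPS26, the identical copy AC004057.1-201 shown above had 3068 and 3169 reads, a small fall relative to library size (log2 ratio -0.10, exact binomial adjusted p = 0.0312). RPS26P3-201, with 99.1% identity over its length, had 72 and 60 reads and RPS26P47-201 had 41 and 54. AC004552.1-201 rose from 24 to 57 (1.08, exact binomial adjusted p = 0.0155). With no minimum of reads both calls were lost, and AC004057.1-201 passed as higher (0.18) when scaled to reads in known models. For RPL13A, RPL13AP5-201 with its single differing base in the stretch shown had 3714 and 4032 reads, while RPL13AP25-201 had 28 and 43 and RPL13AP7-201 had 22 and 20. The order in reads followed the order in identity for these 3 copies, but not for all copies. AC024940.2-201 of RPL13A, with 97.35% identity, had 1 and 1 reads, fewer than RPL13AP7-201 with 96.9%. Among the RPS26 copies, RPS26P47-201 with 99.42% had fewer reads than RPS26P3-201. For RPL21, RPL21P75-201 (99.8% identity) had 590 and 811 reads and AC107032.1-201 (98.5%) had 8 and 19. EEF1A1P5-201, a copy of the translation elongation factor EEF1A1, had 2255 and 2937 reads, and the next copy, EEF1A1P6-201, had 9 and 36. PPIAP22-201, a copy of cyclophilin A, had 1026 and 1174, and its next copy had 1 and 1.

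Pseudogene models held more reads than the spliced gene itself for several ribosomal proteins. Of the 68 spliced genes with at least 100 reads in their pseudogene models, the pseudogene models outnumbered the gene in both libraries for 10. For RPS26, 18 pseudogene models held 3282 and 3466 reads and the spliced gene held 51 and 66, so that the pseudogene share was 98.5% and 98.1%. For RPL21 the 26 models held 96.6% and 96.2%, for RPL9 94.3% and 89.5%, for RPS28 89.3% and 85.6%, for RPL41 88.1% and 85.8%, and for RPL36A 88.1% and 88.0%. The shares were alike between the libraries to within 5 percentage points in these genes. They set only known single-exon pseudogene models against all reads of the spliced gene. For RPL9 they leave out 1648 and 4308 reads of its copy RPL9P9 in other models, which TALON labels genomic. In other genes the spliced gene kept most reads: the pseudogene share was 36.9% and 35.2% for RPL13A, 32.4% and 31.8% for the laminin receptor and ribosomal protein RPSA, and 11.6% and 11.9% for EEF1A1.

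**Figure D3:**
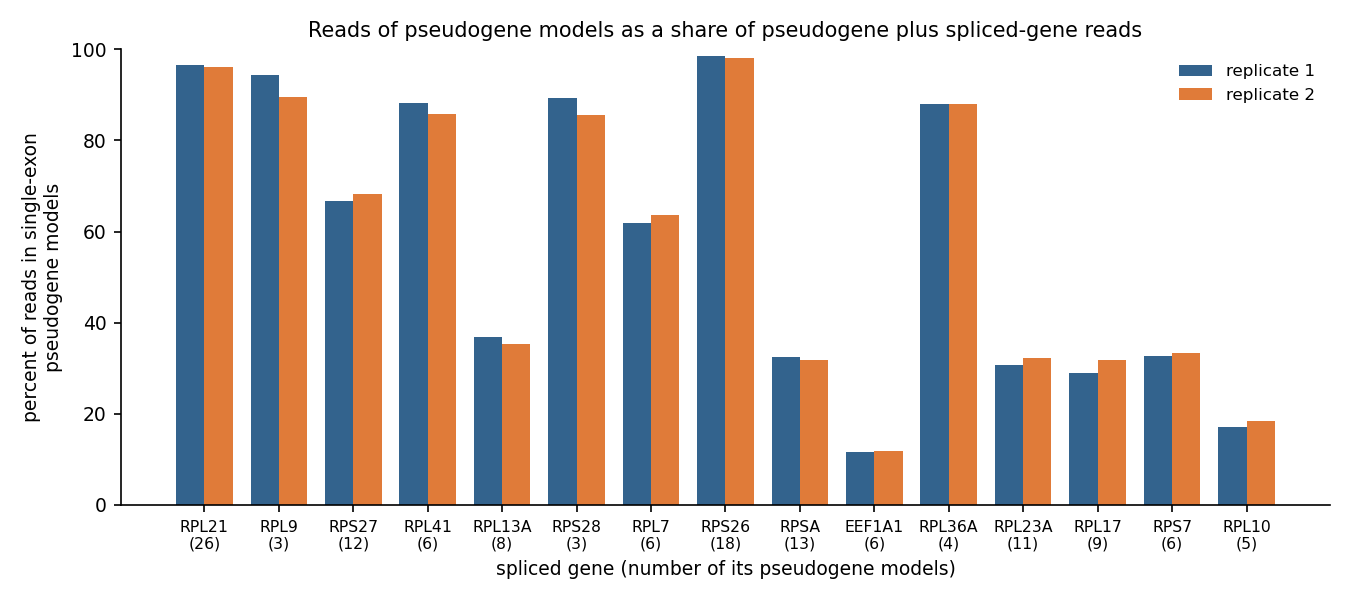
Percent of reads in single-exon pseudogene models, of those reads plus the reads of the spliced gene they resemble, for 15 of the genes with the most pseudogene reads; blue bars are replicate 1 and orange bars replicate 2, and the number of pseudogene models stands under each gene. The bars range from 11.6% for EEF1A1 to 98.5% for RPS26, and RPL9 goes from 94.3% to 89.5%. Reads of the copy RPL9P9 outside its known single-exon model are not counted.

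RPL9P9-202, at chr15:82372310-82372888, had the lowest adjusted p of the 8 single-exon models that fell. This copy of RPL9 (99.8% identity) went from 2876 to 1553 reads, a log2 ratio of -1.04 (exact binomial adjusted p = 9.07e-119). Its gene RPL9P9 also has reads in models that TALON labels genomic, which overlap the gene without matching an annotated structure, and these went from 1648 to 4308. Within the gene, RPL9P9-202 thus went from 63.5% to 26.5%. The other much-read copy, RPL9P7-201 on chromosome X, rose from 2017 to 2721 reads (log2 ratio 0.28, exact binomial adjusted p = 1.84e-09). The spliced gene RPL9 had 295 and 503 reads. All reads of the gene RPL9P9 together went from 4531 to 5863, and this gene total was not tested.

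Other pseudogene models were among the largest changes. EEF1B2P6-201, a copy of an elongation factor subunit, rose from 6 to 48 reads (log2 ratio 2.75, exact binomial adjusted p = 8.93e-07), and AL355032.1-201, a copy of RPL26, from 19 to 70 (1.70, 1.74e-05). PSMC1P1-201, 99.9% identical to the proteasome ATPase gene PSMC1, fell from 56 to 27 reads (-1.19, 0.00348), and AC027309.2-201, a copy of TMA7, from 95 to 65 (-0.70, 0.0213). MTND2P28-201, a nuclear copy of a mitochondrial gene, had 10 reads in replicate 1 and 0 in replicate 2, which allows up to 3 (exact binomial adjusted p = 0.00671). With no minimum of reads the calls of AC027309.2-201 and MTND2P28-201 were lost, the former also when scaled to reads in known models. In all, 67 of the 266 pseudogene models tested passed, 62 as higher and 5 as lower, or 25.2% beside 15.6% of all models. The split depended on scaling. Of the 258 tested in intronless genes, 61 were higher and 3 lower. With TMM scaling or DESeq2 size factors this became 39 and 9, and scaled to reads in known models 96 and 2.

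Few protein-coding models of intronless genes changed. The 219 models held 5521 and 6347 reads, and 5 of the 114 tested passed, 4 as higher and 1 as lower, or 4.39% beside 15.6% of all models. Their median log2 ratio was -0.03, which becomes -0.18 with TMM scaling and 0.25 when scaled to reads in known models. PCBP1-201, of a poly(C)-binding protein that arose by retrotransposition, had the most reads, 617 and 658, or 444.5 CPM ± 12.8 (SD, n = 2). SF3B5-201, a subunit of the splicing factor SF3b, had 395 and 469, and HNRNPA0-201, an RNA-binding protein with an annotated length of 8726 bases, had 306 and 316. CCDC85B-201 had 273 and 292 reads and JUNB-201, an AP-1 transcription factor, 221 and 211. None of these 5 passed the exact binomial test, with adjusted p from 0.321 to 0.865. Their gene had almost no other reads, since each held 98.6% or more of the reads of its gene in both libraries. F8A1-201, whose gene lies inside an intron of the clotting factor gene F8, was the member that fell, from 168 to 133 reads (log2 ratio -0.49, exact binomial adjusted p = 0.0294). That call was lost when scaled to reads in known models (exact binomial adjusted p = 0.433) and with no minimum of reads.

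Of the 4 models of this class that were higher in replicate 2, 3 were of histone genes. Replication-dependent histone mRNAs normally end in a stem-loop without a poly(A) tail. Of the 53 histone models, clustered and variant, 11 were tested and 3 passed, all as higher, beside 8.23% of all models, with a median log2 ratio over the 11 of 0.31 beside 0.14 over all models. With TMM scaling, 2 passed as higher, HIST2H2AA3-201 did not, and H2AFX-202 passed as lower. HIST1H1C-201, the linker histone H1.2, rose from 261 to 513 reads (log2 ratio 0.82, exact binomial adjusted p = 1.29e-12), HIST2H2AA4-201 from 29 to 71 (1.13, 0.00363) and HIST2H2AA3-201 from 25 to 54 (0.94, 0.0431). The last 2 are copies of the same histone gene, so reads may be divided between them. The variants H1FX-201 (123 and 124 reads) and H2AFX-202 (326 and 296) did not pass the test. The median histone model had 3 reads. Of the 46 coding models of clustered histones, 23 were annotated without any untranslated region, against 14 of the 318 other coding single-exon models.

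The list of immediate-early and bZIP genes, which also holds others such as SOX4, had 11 models. Immediate-early genes respond quickly to signals. The median log2 ratio of the 7 tested was -0.07, beside 0.14 over all models. JUND-201 alone passed, which as 1 of 7 is near the 15.6% of all models, with 191 and 311 reads (log2 ratio 0.55, exact binomial adjusted p = 5.88e-04). IER2-203 had 120 and 170 reads, IER5-201 had 144 and 152, SOX4-201 had 27 and 51, and JUN-201 had 16 and 11. With TMM scaling JUNB-201 passed too, as lower. The inducible HSP70 genes HSPA1A and HSPA1B had 25 and 42, and 23 and 21 reads, and neither passed. HSPA1B-201 is 99.7% identical, over 54.3% of its length, to a spliced transcript of another gene. The single-exon models of HSPA1A and HSPA1B were not aligned to each other, and their separate levels are uncertain. Among 7 retrogenes and other intronless coding genes on the list, EIF5AL1-201, a copy of the initiation factor EIF5A, was the 1 of 5 tested that passed, beside 15.6% of all models (median of the 5 -0.01), with 94 and 155 reads (log2 ratio 0.57, exact binomial adjusted p = 0.0195). It did not pass with TMM scaling. TAF7-201, a subunit of the general transcription factor TFIID, had 81 and 73 reads, and the DNA-binding proteins PURA-201 and PURB-201 had 16 and 20, and 28 and 31. RHOB-201, a small GTPase, had 11 and 4 reads and did not pass.

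Small noncoding models were few in reads but often higher in replicate 2. Of 240 models, 43 were tested and 9 passed, all as higher, or 20.9% beside the 8.23% of all models that were higher. With TMM scaling 6 were higher and 1 lower. Their median annotated length was 115 bases, and many lie within or match a longer mRNA. Of the 73 microRNA models, 35 lay in an exon of another gene on the same strand and 25 were identical over their whole length to a spliced coding transcript. The mature sequences of the pair with the most reads in replicate 1, miR-1244 and miR-3654, are printed from RefSeq (GRCh38.p14) with the seed, bases 2 to 8, in capitals.

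hsa-miR-1244 (MIR1244-2, chr5:118974640-118974665, plus strand): aAGUAGUUgguuuguaugagaugguu
hsa-miR-3654 (MIR3654, chr7:133034860-133034878, minus strand): gACUGGACaagcugaggaa

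MIR1244-2-201, an 85-base hairpin model identical to part of a transcript of PTMA (prothymosin alpha), rose from 265 to 534 reads (log2 ratio 0.86, exact binomial adjusted p = 3.83e-14). MIR1244-1-201, which lies in an exon of PTMA itself, had 72 and 119 (0.57, 0.0473), a call lost with TMM scaling, with DESeq2 size factors, and with a minimum of 5 reads or none. MIR3654-201, with 56 bases identical to a transcript of the elongation factor gene EEF1G, rose from 254 to 403 (0.51, 1.78e-04), and MIR7705-201, in an exon of PABPC1, the cytoplasmic poly(A)-binding protein, from 161 to 447 (1.32, 8.23e-24). The table does not record whether the reads ended at the hairpin or ran through the longer transcript.

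The structural RNAs listed, which leave out ribosomal RNA, had few reads, 21 and 174. Of 5 tested, 3 passed, all as higher, beside 8.23% of all models, with a median log2 ratio of 2.79 beside 0.14. The 6 ribosomal RNA models had 277 and 280 reads. Of 4 tested, 0 passed, and their median log2 ratio was -0.11. SNORD3A-201, the U3 small nucleolar RNA that takes part in ribosomal RNA processing, went from 9 to 122 reads (log2 ratio 3.54, exact binomial adjusted p = 4.87e-22). RPPH1-201, the RNA of RNase P, went from 1 to 11 (adjusted p = 0.0465, exact binomial) and RMRP-202, the RNA of RNase MRP, from 0 to 10 (adjusted p = 0.0189, exact binomial). RN7SL1-201, the signal recognition particle RNA, had 5 and 12 reads and SCARNA12-201 had 5 and 10, and neither passed. With TMM scaling RPPH1-201 did not pass, and with no minimum of reads neither it nor RMRP-202 did. RMRP-202, RPPH1-201, RN7SL1-201 and SCARNA12-201 lie in an exon of another gene entry of the annotation. Of the 93 small nucleolar RNA models, 59 lay in an exon of another gene, 26 only in an intron and 8 in neither.

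Long noncoding models were numerous but thinly read. The 527 of intronless genes held 1132 and 1548 reads, and 2 of the 52 tested passed, or 3.85% beside 15.6% of all models. The 119 of spliced genes held 599 and 997 reads. Of the 21 tested, 5 passed, all as higher in replicate 2, or 23.8% beside the 8.23% of all models that were higher. With TMM scaling 4 passed, all as higher. Among models of intronless genes, HMGB1P5-202 had 93 reads in each library. Its gene is annotated as a transcribed processed pseudogene, and the model resembles HMGB1 (97.9% identity). AC026401.3-201 had 75 and 101 reads, and AC024940.5-201, which overlaps an exon of SINHCAF on the same strand, had 32 and 53. NORAD-201, a long RNA that binds Pumilio proteins, had 23 and 33. The nuclear RNAs MALAT1 and NEAT1 had single-exon models with 21 and 29, and 22 and 32 reads. NEAT1-202 was the longest model with at least 10 reads, at 22743 bases. None of MALAT1-202, NEAT1-202 and NORAD-201 passed the exact binomial test, with adjusted p from 0.601 to 0.727. AL022311.1-201, the next longest at 19416 bases, went from 6 to 26 reads (log2 ratio 1.88, exact binomial adjusted p = 0.0114) and contains sequence identical to part of EIF3L. Its call was lost with no minimum of reads.

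Of the 3 immunoglobulin constant-region genes annotated with 1 exon, added after their values were seen, 2 rose, beside 8.23% of all models. IGLC2-201, a lambda light chain constant region, rose from 638 to 2252 reads (log2 ratio 1.67, exact binomial adjusted p = 8.03e-171), and IGLC3-201 from 48 to 113 (1.07, 1.79e-04). IGKC-201, the kappa constant region, had 106 and 131 and did not pass (exact binomial adjusted p = 0.680). In the cell the constant exon is joined to a rearranged variable segment, so these single-exon models stand for part of the mRNA. IGLC2 and IGLC3 are close copies, and reads may be divided between them.

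In spliced genes, 271 models were annotated as retained-intron transcripts, and they held 3664 and 5754 reads, or 4.68% and 5.69% of the single-exon reads (Fisher's exact test p = 1.62e-21). Of the 114 tested, 17 passed, all as higher in replicate 2, or 14.9% beside the 8.23% of all models that were higher. With TMM scaling 13 were higher and 1 lower. B2M-213, of the MHC class I light chain beta-2 microglobulin, had the most reads and rose from 1025 to 1723 (log2 ratio 0.60, exact binomial adjusted p = 3.33e-24). TPM4-213, of a tropomyosin, had 447 and 423 reads, CNN2-206, of the actin-binding calponin 2, 226 and 312, and SRSF3-205, of a splicing factor that regulates its own splicing, 184 and 244. H3F3B-203, of the histone variant H3.3, had 85 and 119, and DAZAP1-208, of an RNA-binding protein, 82 and 107. These 5 did not pass, with exact binomial adjusted p from 0.0752 to 0.519. TPM4-213 passed as lower with TMM scaling, and CNN2-206, SRSF3-205 and H3F3B-203 as higher when scaled to reads in known models. COX4I1-217, of a cytochrome c oxidase subunit, rose from 10 to 47 reads (log2 ratio 2.03, exact binomial adjusted p = 8.60e-05).

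The retained-intron models differed in how they lay within their gene. Of the 271, 160 (59.0%) ended within 50 bases of the 3′ end of a spliced transcript of the gene. Of the 215 whose gene also had reads in known spliced models, 99 (46.1%) contained an intron that those spliced models lacked, and the median share of their bases that were exonic in the most-read spliced model was 32.5%. B2M-213 was 24.4% exonic by this measure. The 1250-base intron shown above was removed in known models with 2333 and 2498 reads and contained in the model B2M-213, which had 1025 and 1723. B2M-213 ends near the 3′ end of a spliced transcript, and whether its reads reached the intron is not recorded. TPM4-213 and CNN2-206 contained no intron that was removed in a known spliced model with reads, and were 40.2% and 63.6% exonic. The retained-intron type covered both arrangements.

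To compare each known model with the rest of its gene, its reads were set against the other reads of that gene. A share can rise because the model gains reads or because the other models of the gene lose them. The test does not tell these apart. The other reads of the gene went from 242 to 150 for CNN2-206 and from 2763 to 3510 for B2M-213. Of 6488 known models tested in this way with Fisher's exact test, 32.5% passed after adjustment, 3.81% with a higher and 28.7% with a lower share in replicate 2. Of the 168 single-exon models that could be tested, 42 passed, 41 with a higher share (24.4%) and 1, RPL9P9-202, with a lower one. Retained-intron models of spliced genes accounted for 27 of the 41, out of 102 tested, and coding models of spliced genes for 8 of 32. B2M-213 went from 27.1% to 32.9% of the reads of its gene (Fisher's exact test, adjusted p = 4.77e-08) and CNN2-206 from 48.3% to 67.5% (6.46e-08). TPM4-213 had 55.4% and 57.0% and SRSF3-205 40.6% and 46.8%, and neither passed (Fisher's exact test, adjusted p = 0.684 and 0.123). SYNGR2-209, a noncoding transcript of a synaptogyrin gene, went from 18.5% to 37.8% of its gene (Fisher's exact test, adjusted p = 1.01e-16) as its reads went from 161 to 297. The known spliced models of SYNGR2 went from 631 to 377 reads over the same libraries. OAZ1-203, of the ornithine decarboxylase antizyme, went from 2.46% to 6.35% (Fisher's exact test, adjusted p = 1.13e-06), and was chosen after its value was seen.

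**Figure D4:**
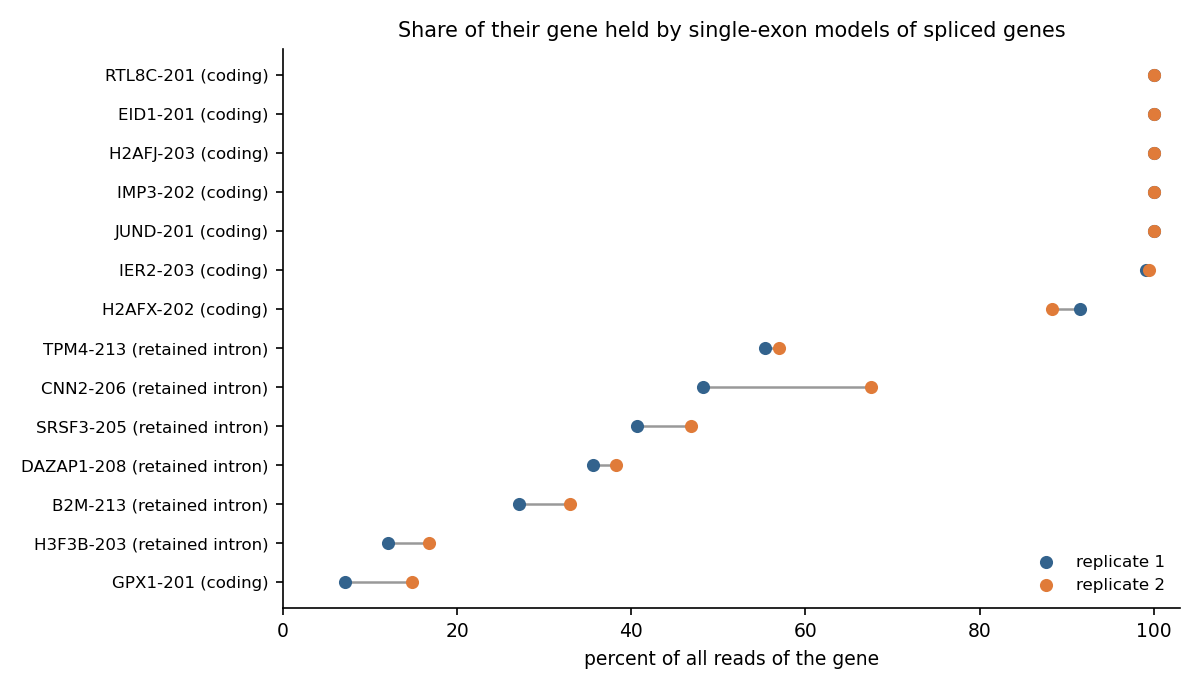
Percent of all reads of the gene held by single-exon models of spliced genes, in replicate 1 (blue) and replicate 2 (orange), for 14 coding and retained-intron models, among those with the most reads or the largest share of their gene; the grey line joins the 2 libraries. Coding models of JUND, IMP3, EID1, RTL8C and H2AFJ hold all reads of their gene in both libraries, and CNN2-206 moved from 48.3% to 67.5%.

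Single-exon coding models of spliced genes numbered 145, with 2975 and 4121 reads, and 8 of the 75 tested passed, 6 as higher and 2 as lower, or 10.7% beside 15.6% of all models. With TMM scaling 5 were higher and 4 lower, and IMP3-202 passed as lower. GPX1-201, of the selenoprotein glutathione peroxidase 1, contains the 279-base intron shown above and rose from 94 to 200 reads (log2 ratio 0.93, exact binomial adjusted p = 3.19e-06), or from 7.13% to 14.8% of the gene (Fisher's exact test, adjusted p = 5.10e-09). The spliced model GPX1-202 had 1175 and 1101 reads. Whether the reads of GPX1-201 covered the intron is not recorded. JUND-201, IMP3-202, EID1-201, RTL8C-201 and H2AFJ-203 held 100% of the reads of their gene in both libraries, although the annotation gives these genes a spliced form too. IMP3-202, of a small nucleolar ribonucleoprotein component, had 169 and 150 reads and EID1-201, of an inhibitor of the acetyltransferase EP300, had 59 and 124 (log2 ratio 0.91, exact binomial adjusted p = 7.59e-04). HIC1-206, of a transcriptional repressor, fell from 38 to 16 reads (-1.37, 0.00962, exact binomial), a call lost with no minimum of reads. Over all 355 spliced genes with a single-exon model and at least 20 reads, such models held a median share of 11.5% of the gene in replicate 1 against 16.8% in replicate 2 (14.2% ± 3.73, SD, n = 2). They held at least 50% of the reads in 79 and 95 genes.

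The annotated 3′ ends of the models also differed by class. A poly(A) signal, AATAAA or ATTAAA on the transcript strand, stood in the last 50 bases of 39.5% of all single-exon models, against 58.7% of known models with 2 or more exons. It was found in 68.5% of coding and 78.2% of long noncoding models of intronless genes and in 61.3% of retained-intron models of spliced genes. Of the 860 pseudogene models of intronless genes it was found in 19 (2.21%), and of the 240 small noncoding models in 4 (1.67%). No match says only that these letters are not in this window.

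Detection was much like that of spliced models. Of the 2528 models, 1440 (57.0%, 95% limits of 55.0 and 58.9% by Wilson's method) had a read in both libraries, against 57.9% of known models with 2 or more exons. Replicate 1 alone read 387 and replicate 2 alone 701, whereas among spliced models the numbers were 5065 and 3767. A single read in all supported 785 models (31.1%). With 10 or more reads, 707 of 709 were read in both. When the reads of replicate 2 were thinned to the smaller total, 2078 single-exon models had a read, against 2141 before thinning and 1827 in replicate 1. Of the models read in 1 library only, MTND2P28-201 and RMRP-202 had 10 reads each, AC104619.1-201 and BTF3L4P2-201 had 9 in replicate 2, and RFNG-209, of the glycosyltransferase radical fringe, had 8 in replicate 2.

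Levels agreed between the libraries across models, which are not independent replicates. Pearson's r of log2(CPM + 1) was 0.906 and Spearman's rho 0.656 over the 2528 models, against 0.879 and 0.647 over spliced known models. Within classes, r was 0.940 for intronless coding, 0.939 for intronless pseudogene, 0.870 for retained-intron models of spliced genes and 0.601 for intronless long noncoding models. All points share the same pair of libraries. Of the 709 models with at least 10 reads, 77.0% had a log2 ratio within 1 of zero, against 64.5% of spliced models. The median log2 ratio was 0.33 for single-exon and -0.56 for spliced models.

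In spliced known models the median log2 ratio went from -0.01 in the shortest of 4 length classes of equal size (130 to 982 bases) through -0.49 and -0.80 to -1.08 in the longest (2653 to 34526 bases). In single-exon models it was 0.37 in the shortest class (53 to 459 bases), then 0.48 and 0.25, and 0.30 in the longest (2787 to 22743 bases). The longest class minus the shortest was thus -0.07 for single-exon and -1.07 for spliced models, as a description without a test. Within intronless and within spliced genes the single-exon difference was -0.28 and -0.29. The classes have other length limits in single-exon and spliced models. Of the 177 longest single-exon models, 16 passed as higher and 1 as lower in replicate 2, near the 8.23% and below the 7.34% of all models. Long members with near-equal reads included FEM1A-201 of 9593 bases, with 29 and 33 reads, and PURA-201 of 11497 bases, with 16 and 20. The shortest with at least 10 reads was MIR1825-201 of 53 bases, with 3 and 10 reads, inside an exon of POFUT1.

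**Figure D5:**
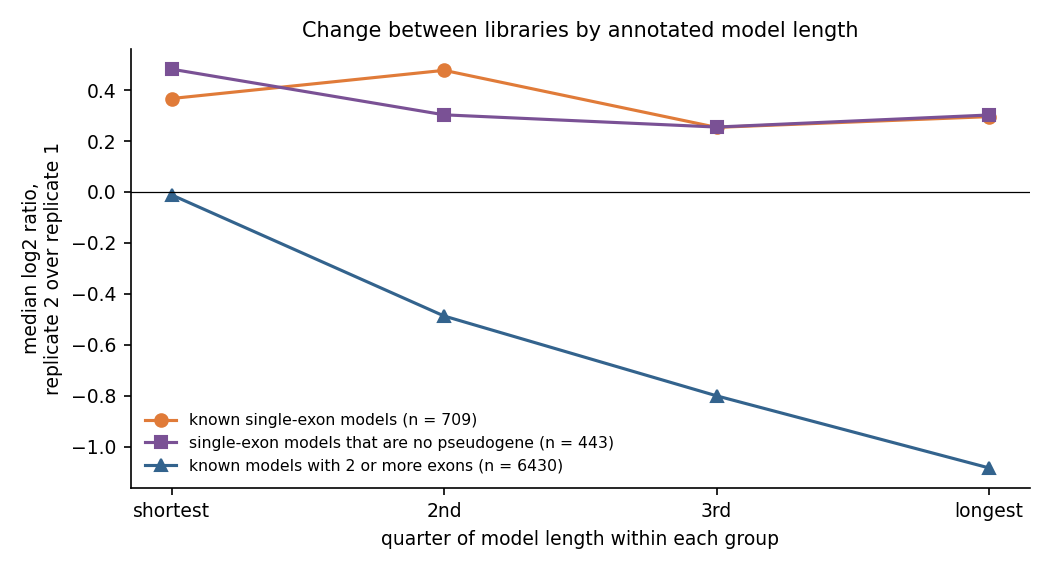
Median log2 ratio of replicate 2 over replicate 1 (y) by class of annotated model length, from shortest to longest, within each group (x), for known single-exon models, those that are no pseudogene, and known models with 2 or more exons, all with at least 10 reads. The single-exon lines stay between 0.25 and 0.48, while the spliced line goes from -0.01 to -1.08, and the split of single-exon models into intronless and spliced genes is not drawn.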

How the data were processed

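The authors deposited raw read counts per transcript model in 1 table, with 1 column per library and no normalization, and with the exon number and length of each model as other properties. The table's name shows that TALON made it. Reads were aligned with minimap2 to hg38, per the submitters' processing notes; versions, annotation release and read filters are not given in the sources used here. All known models match GENCODE release 29 by identifier, which supplied types, exons and positions. Columns of no sample numbered 0.

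How reads without a junction were matched to models of 1 exon is not given in the sources used here. Models and lists were chosen with earlier results of these data known. A gene was called intronless where every annotated transcript has 1 exon. Counts of each model with at least 10 reads over both libraries were compared with library totals by an exact binomial test, two-sided, over all models, with Benjamini-Hochberg adjustment at 0.05 (Python 3.11.15, scipy 1.17.1). With 1 group, edgeR's quasi-likelihood test between groups could not be fitted. Log2 ratios, replicate 2 over replicate 1, add 0.5 reads. The test of a model within its gene (Fisher's exact test, at least 10 reads of the model and 10 others, all known models) was added after the first results were seen. Both tests' p-values are for reads of 2 libraries. Wilson 95% intervals and the limit of 3 reads for a count of 0 cover counting error only. Members were compared with spliced transcripts of other protein-coding genes with megablast (BLAST+ 2.17.0). TMM factors came from edgeR 4.0.16 and size factors from DESeq2 1.42.0. The binomial test was checked on simulated counts that varied by counting error only, with changes set only in much-read models. That check covers neither variation between libraries nor changes in models with few reads. Genes named are the 6 with the highest CPM per class, the 5 largest changes each way with at least 50 reads, the 5 longest and 3 shortest, the 5 most-read in 1 library only, the 6 with the largest share of their gene, and list members; family copies of the most-read pseudogenes, RPL9P7, IGLC2, IGLC3, IGKC and OAZ1-203 were added after their values were seen. A few models that this rule names are not reported here.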

Additional observations from a re-analysis of the deposited data

How the results depend on the processing

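The higher share of single-exon reads in replicate 2 held with reads in known models or reads outside MT- genes as the total, but not with MT- models counted too (mean 7.60%, exact test p = 0.0766). Single libraries gave 5.76% to 6.70%. The intronless share of these reads, 82.4% to 83.5% by library, lost its difference without pseudogenes (mean 54.8%). The count of 119 models became 193 when scaled to reads in known models and 69 with no minimum of reads. In an alternative added once the data had been seen, it was 52 without pseudogenes, which leaves fewer models to test. The share that passed was also higher among pseudogene models, 25.2%, than among all single-exon models tested, 16.8%. Scaled to reads in known models, log2 ratios rose by 0.29. Sign changes were counted among 110 named models and family copies, and only where the model passed before or after the scaling. By this count 7 changed sign: AC004057.1 0.18, AC005912.1 0.24, AC016596.1 0.24, AC090498.1 0.26, PCBP1 0.23, RPL13AP5 0.25 and RPL21P16 0.29. Models that passed in neither setting were left out, and some of these also changed sign. By the same count, only RPL7P9 changed sign with TMM scaling, to -0.000807. Reads of 2 or 5 per library as the limit put 39.1% or 23.8% of models in both. Agreement was r = 0.681 with 0.1 CPM added, 0.973 with 10 CPM, and 0.934 over models with at least 10 reads. The long minus short difference was -0.28 in intronless and -0.29 in spliced genes. The median share of the gene was 7.68% in genes with at least 100 reads and ran from 11.5% to 16.8% between libraries. No paired analysis was possible because both libraries belong to 1 group. Depth limits 785 models that rest on 1 read. The causes of these shifts were not tested.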
